A study of Mus musculus with 4 samples.

Results

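The genes described here are the hypoxia-inducible factor (HIF) subunits Hif1a and Epas1, the HIF prolyl hydroxylases Egln1 and Egln3, and 6 classic non-glycolytic hypoxia targets, Bnip3, Ndrg1, Car9, Adm, P4ha1 and P4ha2. They were chosen by gene symbol, with earlier results of these data known, and all 10 were found among the 22180 genes with a named probe set. The 10 genes had 13 probe sets of the 41345 on the array, since Hif1a, Ndrg1 and Car9 each had a second one. The RNA came from 4T1Br cells, a subline of the mouse mammary tumour line 4T1 that seeds the brain; the sample titles say 4T1. The shControl group carried a control hairpin and the shYTHDF3 group a hairpin against YTHDF3, a cytoplasmic protein that binds N6-methyladenosine in messenger RNA. Both groups were transduced with lentivirus and selected with puromycin, and each held 2 arrays. The hairpin sequence, the number of hairpins and the oxygen level of the cultures are not given in the labels, nor do they say whether arrays of a group stem from separate cultures. The p-values therefore reflect array-to-array spread alone, which may be technical.

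HIF is a transcription factor made of an oxygen-labile alpha subunit, HIF1A or EPAS1, and the stable partner ARNT. In oxygen, EGLN enzymes hydroxylate prolines of the alpha subunit, the VHL ubiquitin ligase binds the modified protein, and the proteasome destroys it. When oxygen is low the alpha subunit persists, pairs with ARNT and binds hypoxia response elements, whose core reads ACGTG or GCGTG. The control of HIF alpha is mostly at the level of protein, whereas arrays read RNA abundance, and no HIF protein was measured here.

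The promoters of the members show where such cores lie. The bases before the annotated start were read from RefSeq sequence of the GRCm38.p6 build for the 8 members that matched by symbol; Epas1 and Ndrg1 were not matched. The 6 shown are those of the 4 matched members with the largest measured differences and of 2 members with little difference, Car9 and Egln3. Each runs 5′ to 3′ on the gene's strand and ends at the base before the start. Capitals mark ACGTG or GCGTG on either strand, so that CACGT and CACGC in capitals are cores on the opposite strand.
P4ha1, chr10:59323046-59323295, plus strand: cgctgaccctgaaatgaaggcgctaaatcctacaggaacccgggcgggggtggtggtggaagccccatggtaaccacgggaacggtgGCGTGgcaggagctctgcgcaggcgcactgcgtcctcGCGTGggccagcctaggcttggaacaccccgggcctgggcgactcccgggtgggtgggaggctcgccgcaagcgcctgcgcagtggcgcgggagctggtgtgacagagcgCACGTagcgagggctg
P4ha2, chr11:54100674-54100923, plus strand: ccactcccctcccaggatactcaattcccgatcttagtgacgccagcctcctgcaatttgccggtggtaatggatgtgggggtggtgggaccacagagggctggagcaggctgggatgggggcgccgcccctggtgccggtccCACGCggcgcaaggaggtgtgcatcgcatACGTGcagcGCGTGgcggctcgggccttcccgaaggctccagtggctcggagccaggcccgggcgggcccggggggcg
Bnip3, chr7:138909507-138909756, minus strand: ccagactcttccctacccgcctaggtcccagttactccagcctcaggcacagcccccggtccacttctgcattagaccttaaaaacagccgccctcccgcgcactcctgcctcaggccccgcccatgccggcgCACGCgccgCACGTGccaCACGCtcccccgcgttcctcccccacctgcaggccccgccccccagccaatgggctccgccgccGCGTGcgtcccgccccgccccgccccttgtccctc
Hif1a, chr12:73907617-73907866, plus strand: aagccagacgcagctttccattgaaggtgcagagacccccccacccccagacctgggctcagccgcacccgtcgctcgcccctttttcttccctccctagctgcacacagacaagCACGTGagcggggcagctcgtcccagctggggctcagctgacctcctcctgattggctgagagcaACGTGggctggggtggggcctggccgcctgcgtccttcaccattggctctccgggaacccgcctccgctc
Car9, chr4:43506776-43507025, plus strand: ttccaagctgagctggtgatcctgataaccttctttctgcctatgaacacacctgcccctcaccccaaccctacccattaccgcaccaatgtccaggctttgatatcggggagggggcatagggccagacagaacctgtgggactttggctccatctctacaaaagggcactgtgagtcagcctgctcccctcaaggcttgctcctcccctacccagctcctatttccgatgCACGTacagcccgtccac
Egln3, chr12:54203875-54204124, minus strand: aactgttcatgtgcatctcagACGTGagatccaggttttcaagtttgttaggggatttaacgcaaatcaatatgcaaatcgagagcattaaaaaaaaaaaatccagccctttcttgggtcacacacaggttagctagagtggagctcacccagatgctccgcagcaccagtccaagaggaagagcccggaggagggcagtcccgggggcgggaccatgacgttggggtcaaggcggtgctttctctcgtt

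All 8 matched members held at least 1 core in these 250 bases, and so did 38.6% of the 32851 promoter windows of the same length. Base composition differs between them: the 8 windows ran from 50.8% to 86.0% GC, and 51.3% of the 19344 windows with at least 50% GC held a core. That cut does not match the members, since the windows of Hif1a, P4ha1, P4ha2, Bnip3 and Egln1 held 66.4% to 86.0% GC. The members were chosen as HIF factors and classic hypoxia targets, and whether they hold more cores than like windows was not tested. Bnip3 had 5 matches, 2 of them the opposite strands of 1 palindrome, CACGTG, which also is the E-box of other factors and which 6.02% of all windows held. Hif1a had the same palindrome at position -135 and a further ACGTG at -70. P4ha1 and P4ha2 had 3 matches each, Car9 had 1 at -18 and Egln3 had 1 at -229. A match is a description of letters, and binding was not measured.

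Expression was given as robust multi-array average (RMA) values, taken as log2. A gene was tested when its mean over the 4 arrays lay above 4.28, the level under which 95% of 1108 olfactory receptor probe sets lay, and 13056 genes were. Differences are shYTHDF3 minus shControl, tested with limma with Benjamini-Hochberg adjustment over all genes tested. Ythdf3, the targeted transcript, read 8.98 and 8.81 in shControl against 8.21 and 8.16 in shYTHDF3 and fell by 0.71 (SE 0.10, limma adjusted p = 0.0355). That call was lost when dim genes were kept in the test and when any 1 of the 4 arrays was left out. Array medians lay between 4.42 and 4.47.

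**Figure D1:**
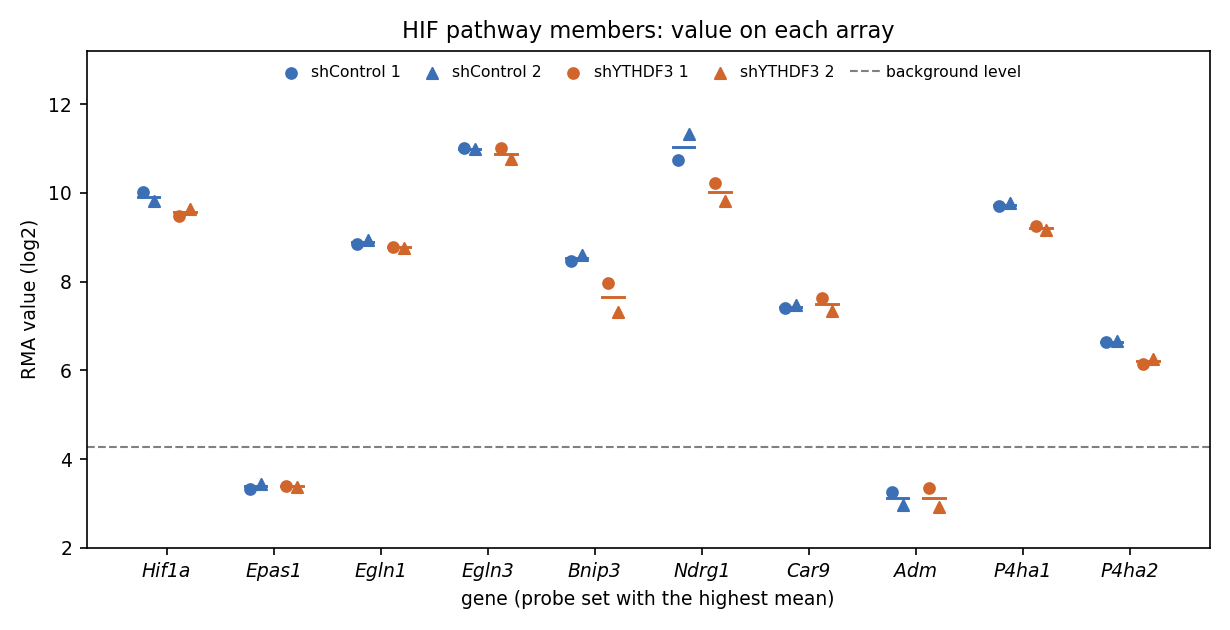
RMA values (log2) of the 10 genes on each of the 4 arrays; blue marks shControl, orange shYTHDF3, circles array 1, triangles array 2, and short bars the group means. Epas1 and Adm sit under the dashed background level of 4.28, and the groups of Hif1a, Egln1, Bnip3, Ndrg1, P4ha1 and P4ha2 do not overlap.

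Of the 10 members, 8 were above background and tested, and Epas1 and Adm were not. Limma called 0 of the 8, where it called 2.73% of all genes tested (356 genes). At an unadjusted p under 0.05, 5 of the 8 were lower in shYTHDF3 (Hif1a, Bnip3, Ndrg1, P4ha1 and P4ha2) and none was higher, against 10.4% lower and 12.2% higher among all genes tested. In 6 of the 8 both shYTHDF3 values lay under both shControl values, which held for 25.7% of all genes tested, the reverse holding for 0 of the 8 and for 28.3%. The median difference was -0.40 over the 8 members and 0.01 over all genes tested. Since the members were chosen with earlier results of these data known, these counts are descriptive and no set test was run. All 8 passed the filter in each group by their group means, so none entered through 1 group alone. When limma's variance model followed intensity, the same 5 members passed, where 5.33% of all genes tested passed as lower. Without the filter none of the 5 passed, with a limma adjusted p from 0.129 (P4ha1) to 0.284 (Hif1a). With the replicate number as a block none passed either, with a limma adjusted p from 0.112 (P4ha1) to 0.227 (Hif1a).

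Hif1a, the oxygen-labile alpha subunit of HIF-1, was lower on both shYTHDF3 arrays but did not pass. On the shControl arrays its brighter probe set (17276328) gave 10.01 and 9.82, and on the shYTHDF3 arrays 9.48 and 9.64. Both shYTHDF3 values were under both shControl values, by as little as the distance from 9.64 to 9.82. The log2 difference was -0.35 (SE 0.11, limma adjusted p = 0.153; 0.0310 with the intensity trend), leaving 78.3% of the shControl level. Its second probe set (17281911), with 5.85 and 5.58 for shControl and 5.27 and 5.58 for shYTHDF3, differed by -0.29, with shControl 2 and shYTHDF3 2 nearly equal. A further probe set shared by Hif1a and a pseudogene of another gene was not used.

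Epas1, the alpha subunit of HIF-2, read 3.33 and 3.45 in shControl against 3.40 and 3.37 in shYTHDF3. All 4 values lay under the background of 4.28, so it was not tested and no fold is given. Its transcript was not detectable above the background on these arrays.

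The HIF prolyl hydroxylases, which mark HIF alpha for destruction and whose genes are themselves HIF targets, did not pass the test. Egln1, the main oxygen sensor of the family, read 8.85 and 8.94 in shControl against 8.77 and 8.76 in shYTHDF3. The groups did not overlap, and the difference of -0.13 (SE 0.09, limma adjusted p = 0.460) had a 95% interval of -0.36 to 0.10. Egln3, strongly induced by hypoxia in many cells, read 11.00 and 10.98 in shControl against 11.00 and 10.76 in shYTHDF3. The groups overlapped, since shYTHDF3 1 was as high as shControl and only shYTHDF3 2 was lower. The Egln3 difference was -0.11 (SE 0.11, limma adjusted p = 0.617), with an interval of -0.39 to 0.17, and 0.01 without shYTHDF3 2. The changes of the 2 hydroxylases differed by -0.02 (two-sided exact permutation test, p = 1, where 0.333 is the smallest that 2 arrays against 2 allow).

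Ndrg1 and Bnip3 had the largest differences of the 10. Ndrg1, a cytoplasmic protein known as a metastasis suppressor and a stress-induced gene, read 10.73 and 11.33 in shControl against 10.22 and 9.81 in shYTHDF3. The groups did not overlap, but the 2 arrays within each group lay far apart. The log2 difference was -1.01 (SE 0.23, limma adjusted p = 0.0814; 0.00869 with the intensity trend), which is 49.6% of the shControl level. Only 0.375% of all genes tested had a lower difference. Its second probe set (17312032), at 5.25 and 5.72 against 5.05 and 4.93, also had groups that did not overlap and differed by -0.49. Averaged over both probe sets the difference was -0.75. With 1 array left out, the difference of the brighter probe set ran from -1.31 (without shControl 1) to -0.71 (without shControl 2).

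Bnip3, a mitochondrial BH3-only protein that draws mitochondria into autophagy, read 8.45 and 8.59 in shControl against 7.98 and 7.32 in shYTHDF3. Both shYTHDF3 arrays were lower, shYTHDF3 2 by much more. The difference was -0.87 (SE 0.21, limma adjusted p = 0.0937; 0.0145 with the intensity trend), leaving 54.6% of the shControl level, and 0.643% of all genes tested had a lower difference. Its size rested on 1 array: it was -0.55 without shYTHDF3 2 and -1.20 without shYTHDF3 1.

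P4ha1 and P4ha2 encode the alpha subunits of collagen prolyl 4-hydroxylase, which stabilises the collagen triple helix in the endoplasmic reticulum. P4ha1 read 9.69 and 9.77 in shControl against 9.26 and 9.16 in shYTHDF3. P4ha2 read 6.64 and 6.65 in shControl against 6.15 and 6.26 in shYTHDF3. In both genes the groups lay well apart and the arrays within a group close together. P4ha1 differed by -0.52 (SE 0.10, limma adjusted p = 0.0537), or 69.6% of the shControl level, and passed with the intensity trend (0.00265) and when only genes above the median probe set were tested (0.0465). P4ha2 differed by -0.44 (SE 0.09, limma adjusted p = 0.0705; 0.0426 with the intensity trend), or 73.5% of the shControl level. Leaving out 1 array kept the P4ha1 difference between -0.57 and -0.48 and that of P4ha2 between -0.50 and -0.39. The 2 subunits' changes differed by -0.08 (two-sided exact permutation test, p = 0.667, where 0.333 is the smallest possible).

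Car9, a cell-surface carbonic anhydrase that acidifies the outside of hypoxic tumour cells and is often taken as their marker, was not separated between the groups. It read 7.41 and 7.46 in shControl against 7.62 and 7.35 in shYTHDF3, so the 2 shYTHDF3 values stood on either side of shControl. The difference was 0.05 (SE 0.12, limma adjusted p = 0.849), with a 95% interval of -0.25 to 0.35, and -0.09 without shYTHDF3 1. Its second probe set (17424651) differed by -0.02. Adm, the secreted vasodilator peptide adrenomedullin, read 3.26 and 2.97 in shControl against 3.34 and 2.92 in shYTHDF3, all under the background, so it was not tested.

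**Figure D2:**
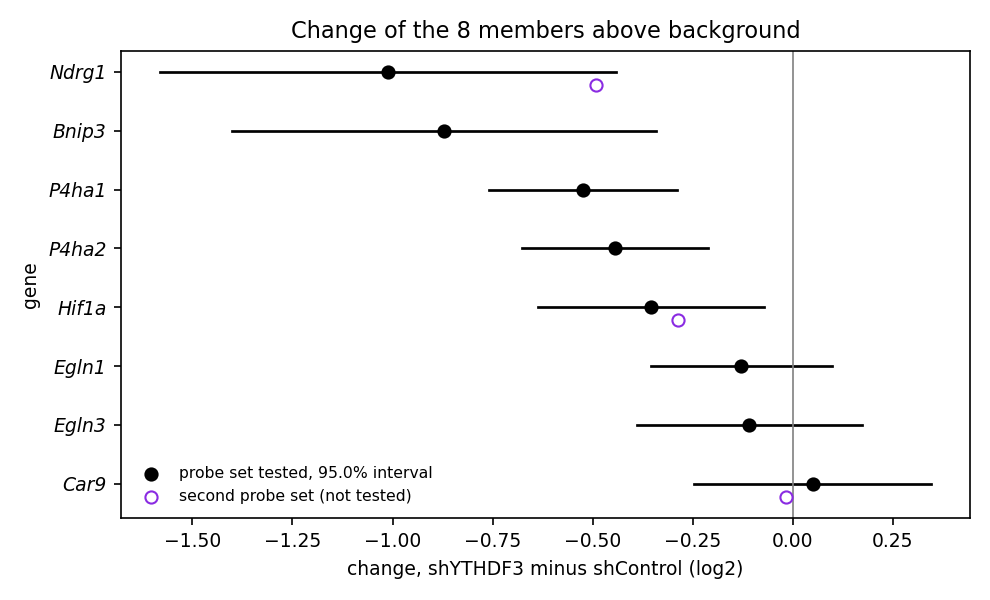
Log2 difference, shYTHDF3 minus shControl, of the 8 members above background, with limma's 95% interval; open circles are second probe sets. The intervals of Ndrg1, Bnip3, P4ha1, P4ha2 and Hif1a lie below 0 before adjustment over all genes, and those of Egln1, Egln3 and Car9 span 0.

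Differences between arrays of the same group bear on how firm these values are. Of the 8 members tested, 6 were lower on shYTHDF3 2 than on shYTHDF3 1, and 2 were lower on shControl 2 than on shControl 1. Of 31 other non-glycolytic targets, 27 were lower on shYTHDF3 2 than on shYTHDF3 1, and 8 were lower on shControl 2 than on shControl 1. Of 17 glycolytic targets the counts were 14 and 2. Over all genes tested the shares were 53.6% in shYTHDF3 and 54.3% in shControl. Whether these shares differ between lists was not tested. The median difference between arrays of a group was -0.14 in shYTHDF3 and 0.11 in shControl for the non-glycolytic targets, and -0.17 and 0.07 for the members. For the glycolytic targets it was -0.18 and 0.13, and over all genes tested -0.01 and -0.02. Hypoxia targets thus differed between arrays of a group too. Between groups the medians were -0.40 for the members, -0.43 for the non-glycolytic and -0.37 for the glycolytic targets. These compare means of 2 arrays rather than single arrays, and opposite signs cancel in a median, so the sizes were not compared. The part of the array differences in the results was not tested.

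**Figure D3:**
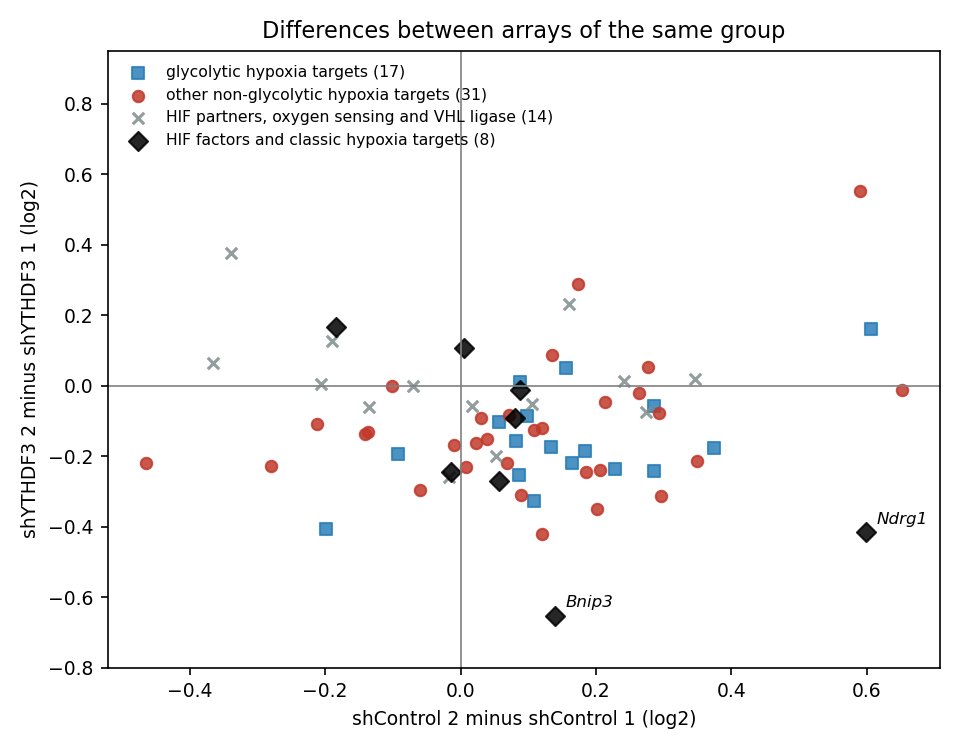
Array 2 minus array 1 (log2) in shControl (horizontal axis) and in shYTHDF3 (vertical axis) for the genes tested in 4 lists. At the lower right, higher on shControl 2 and lower on shYTHDF3 2, lie 5 of the 8 members, 19 of the 31 non-glycolytic and 12 of the 17 glycolytic targets. Of all 13056 genes tested, 3315 fall there. Ndrg1 and Bnip3 lie farthest down among the members.

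The other genes of the pathway were taken from lists chosen with earlier results of these data known, so each is given by its counts and its median. Among HIF partners and the oxygen-sensing machinery, limma called 0 of the 14 genes tested of 19 listed, against 2.73% of all genes tested. At an unadjusted p under 0.05, 3 of the 14 were lower and 0 higher, against 10.4% and 12.2% of all genes tested. The median difference of the 14 was -0.01. The 2 largest differences were those of Cited2 and Arnt, both among the 3 lower. The remaining lower gene, P4htm, was named after its values were seen. P4htm averaged 4.55 in shControl and 4.25 in shYTHDF3, the latter under the background, so it entered the test through shControl alone. Arnt, the shared partner of HIF1A and EPAS1, had 8.98 and 9.04 for shControl and 8.51 and 8.31 for shYTHDF3, a difference of -0.60 (SE 0.11, limma adjusted p = 0.0527). Cited2, which encodes an inhibitor that competes with HIF alpha for the coactivators CBP and p300 and is itself induced by HIF, read 10.64 and 10.63 against 10.11 and 9.85, a difference of -0.66 (SE 0.12, limma adjusted p = 0.0523). In both genes the groups did not overlap. Each passed with the intensity trend, with arrays shifted to a common median, with each gene's probe sets averaged and with only genes above the median probe set tested. Neither passed without the filter, after quantile normalization once more, over all probe sets, with the replicate number as a block or with any 1 array left out.

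Of the 31 other non-glycolytic hypoxia targets tested, 7 fell, none rose and 24 did not pass, where 1.45% of all genes tested fell and 1.28% rose. The list held 40 genes, 35 of them with a named probe set, and the median difference of those tested was -0.43. Angptl4, an inhibitor of lipoprotein lipase, Ddit4, an inhibitor of mTORC1, and Ero1a, an oxidase of the endoplasmic reticulum, fell, with log2 changes of -2.08, -1.33 and -1.29. The other 4, named after their values were seen, were Bhlhe40, a transcriptional repressor, Stc1, the secreted glycoprotein stanniocalcin, Tfrc, the transferrin receptor, and Hmox1, heme oxygenase. Their changes were -0.92, -0.72, -0.71 and -0.71, and the limma adjusted p of all 7 lay between 0.00474 and 0.0478. With shControl 1 or shControl 2 left out limma called none of the 7, and with shYTHDF3 1 or shYTHDF3 2 left out it called 1, Angptl4. The calls of the last 4 also ended when dim genes were kept in the test. With the replicate number as a block Angptl4 and Ddit4 were called and the other 5 were not (Ero1a at a limma adjusted p of 0.0614), and the Hmox1 call also ended after quantile normalization once more (0.0541). Over all probe sets none of the 7 was called.

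Of 17 glycolytic targets tested of 20 listed, 2 fell and 15 did not pass, with a median of -0.37 that became -0.19 when each gene's probe sets were averaged. They were Slc2a3, a glucose transporter, and Pfkfb3, which makes an activator of glycolysis, with changes of -1.01 and -0.92 (limma adjusted p = 0.0307 and 0.0321). Both calls ended without any 1 array, without the filter, with the replicate block and over all probe sets.

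**Figure D4:**
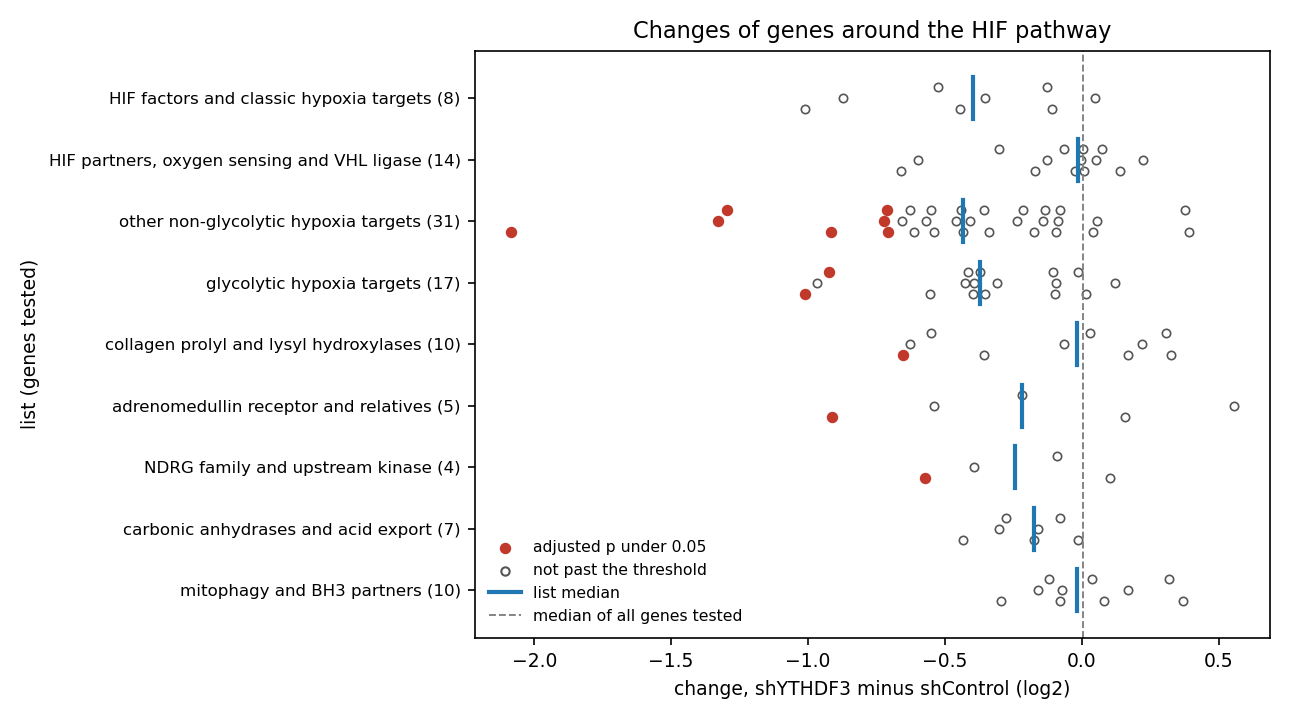
Log2 differences, shYTHDF3 minus shControl, of the genes tested in 9 lists (number tested in parentheses); filled points passed limma's threshold, blue bars are list medians and the dashed line is the median of all genes tested, 0.01. The 2 lists of further hypoxia targets have medians of -0.43 and -0.37, near the members' -0.40, while that of HIF partners is -0.01.

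The surroundings of single members moved unevenly. Among 10 collagen prolyl and lysyl hydroxylases and their partners, P3h2, a prolyl 3-hydroxylase, fell by 0.65 (limma adjusted p = 0.0377) and 9 did not pass, the median being -0.02. At an unadjusted p under 0.05, 4 of the 10 were lower and 2 higher, against 10.4% and 12.2% of all genes tested. The 2 higher were P3h3, by 0.33, and P4ha3. P4hb, the beta subunit that P4HA1 and P4HA2 need, also in the list of hypoxia targets, differed by -0.36 (limma adjusted p = 0.106). P4ha3, the third alpha subunit, had 5.07 and 5.06 for shControl and 5.26 and 5.48 for shYTHDF3, a difference of 0.31 (limma adjusted p = 0.182), opposite in sign to P4ha1 and P4ha2. Plod1 and Plod2, lysyl hydroxylases of collagen and also in the list of hypoxia targets, differed by -0.63 and -0.55 (limma adjusted p = 0.0527 and 0.0537). Apart from P3h2 and the members, these genes were named after their values were seen.

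Of the genes around adrenomedullin, Ackr3, an atypical chemokine receptor that also binds adrenomedullin, fell by 0.91 (limma adjusted p = 0.0240) and the other 4 tested did not pass. Calcrl, the receptor proper, read 3.37 and 3.45 in shControl against 3.45 and 3.42 in shYTHDF3, under the background, as did the related peptide Adm2. The receptor partners Ramp1, Ramp2 and Ramp3 differed by 0.56, -0.22 and -0.54, and Pam, the enzyme that amidates the peptide, by 0.16. Ramp3 averaged 4.07 in shYTHDF3, under the background.

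In the NDRG family, Ndrg2 differed by -0.40 (limma adjusted p = 0.0955), Ndrg3 by -0.09 and Ndrg4 by 0.10, and none passed. Sgk1, a kinase that phosphorylates NDRG1, fell by 0.57 (limma adjusted p = 0.0484), and that call ended with arrays shifted to a common median (0.0525). Limma called 0 of 7 carbonic anhydrases and acid exporters, against 2.73% of all genes tested. At an unadjusted p under 0.05, 3 of the 7 were lower and 0 higher, against 10.4% and 12.2% of all genes tested. Car12, the other hypoxia-induced surface carbonic anhydrase, read 8.37 and 8.36 against 8.01 and 7.84, a difference of -0.43 (limma adjusted p = 0.0846), and the lactate transporter gene Slc16a1 differed by -0.30. Of 10 mitophagy genes and BH3 partners limma called 0. At an unadjusted p under 0.05, 2 of the 10 were higher and 0 lower, against 12.2% and 10.4% of all genes tested. Those 2 were Map1lc3b, the autophagosome protein LC3B, which differed by 0.37, and Bcl2, which BNIP3 binds, by 0.32. The Ackr3, P3h2 and Sgk1 calls ended without the filter, with the replicate block, over all probe sets and without any 1 of the 4 arrays.

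Markers were read as a check on the cells. Of 6 epithelial markers Krt8, Krt18 and Cdh1 were above background, Cdh1 only just (4.37 to 4.61), while Epcam, Krt14 and Cldn7 were not. The summed level of the 6 on the linear scale was 2515 to 2746 in shControl and 3490 to 3718 in shYTHDF3. Most of it came from Krt8 and Krt18, so it largely restates those genes. Krt8, Krt18 and Cdh1 differed by 0.31, 0.57 and 0.10 (limma adjusted p = 0.151, 0.0527 and 0.612), and none passed. Of 7 fibroblast markers 6 were above background and Lum was not. Dcn and Pdgfra fell, with log2 changes of -2.65 and -0.61 (limma adjusted p = 0.00474 and 0.0471). The other 4 did not pass and differed in sign: Thy1 by -0.44, Col1a2 by -0.05, Col1a1 by 0.10 and Pdgfrb by 0.21. Thy1 averaged 4.23 in shYTHDF3, under the background. The fibroblast sum was 987 to 1033 in shControl, most of it from the Pdgfra and Dcn probe sets, and 623 to 632 in shYTHDF3, so it largely restates those genes. Of 6 macrophage and leukocyte markers 2 were above background (Cd68 and Cd14), with sums of 576 to 601 and 413 to 489, while the defining Ptprc and Adgre1 were under it. For 5 endothelial markers, 2 above background, the sums were 88.5 to 90.6 and 87.5 to 95.04. The RNA came from a selected cell line rather than a tissue. In bulk RNA fewer cells of a type and less RNA per cell cannot be told apart, and the part of these markers in the members' differences was not tested.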

How the data were processed

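The data were 4 Affymetrix arrays, grouped by title into 2 shControl and 2 shYTHDF3. The authors deposited RMA values, per the submitters' processing notes, one for each probe set on each array, read here as log2; neither the software nor the log base is given in the labels. RMA makes arrays alike, so a shift of most genes one way would not be seen.

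Of 41345 probe sets, 23521 had 1 gene symbol, 1814 several and 16010 none; 23328 took the current symbol by Entrez identifier, and probe sets with several symbols named no gene. The probe set with the highest mean stood for its gene. Groups were compared with limma 3.58.1 (lmFit, eBayes) in R 4.3.3, two-sided, at an adjusted p of 0.05; SE is limma's moderated standard error. The steps were tested on simulated data. The members and lists were chosen with earlier results of these data known. Named genes were the members, Ythdf3, and per list the 3 largest rises and 3 largest falls that passed, or else the 2 largest differences; any gene of a list of at most 7 could be named. Alternatives were other filters, variance models and scalings, probe set means, all probe sets, the replicate number as a block, and leaving out each array. The number of arrays limits the precision. Figures used matplotlib 3.10.9 in Python 3.11.15.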

Additional observations from a re-analysis of the deposited data

How the results depend on the processing

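Over 13 alternatives, the differences of Hif1a, Egln1, Bnip3, Ndrg1, P4ha1 and P4ha2 kept their sign, which was largely fixed in advance. Other filters, variance models, the replicate block and the use of all probe sets leave a difference as it is. The groups of these genes do not overlap, so leaving out 1 array cannot turn their sign. The differences of 2 members turned: with 1 array left out Egln3 ran from -0.23 to 0.013 (without shYTHDF3 2) and Car9 from -0.086 (without shYTHDF3 1) to 0.19. Limma called 5 members with an intensity trend, plain or robust, 1 (P4ha1) with the filter at the median probe set, and 0 otherwise.

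The 356 genes called became 43 without the filter, 1426 with the trend, 1465 with the robust trend, 0 over all 21867 probe sets past the filter, 51 with the replicate block and 0 to 12 with 1 array left out. Called HIF partners became 2 lower and 1 higher with either trend, and 2 lower with the filter at the median, a common median or the mean of probe sets. The 7 other targets that fell became 3 without the filter, 16 (and 1 higher) with either trend, 2 with the replicate block and 0 to 1 with 1 array left out. The 2 glycolytic targets became 0 without the filter, 11 with either trend, 0 with the replicate block and 0 with any 1 array left out. The Ythdf3 change of -0.71 did not pass without the filter (limma adjusted p = 0.0866), over all probe sets (0.188) or with the replicate block (0.0758), and it ran from -0.79 to -0.63 with 1 array left out. List medians near 0 turned sign: HIF partners gave 0.0076 with a common median, collagen hydroxylases 0.0029 with a common median, 0.0017 after quantile normalization once more and 0.0013 without shControl 2, and mitophagy genes 0.0019 with a common median, 0.033 without shControl 1, 0.035 without shControl 2 and 0.017 without shYTHDF3 1. The adrenomedullin list went from -0.22 to 0.0052 without shControl 2, where 4 rather than 5 of its genes passed the filter, so the gene set changed too. Fits with fewer genes or arrays, or a block, have other adjustment or fewer residual degrees of freedom; no other cause was tested.

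The replicate numbers share no stated batch. The deviations of same-numbered arrays from their group means correlated at -0.07 across 13056 genes, which are not independent replicates, and with the replicate block no member was called. Signal over background leaves Epas1 and Adm unmeasured.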
